A study of Mus musculus with 48 samples.

Results

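Microglia sorted from the brains of young mice were compared, gene by gene, with whole spinal cord of young mice. The comparison takes the 8 libraries labelled young microglia and the 8 labelled young cord, 16 of the 48 libraries of the series, and all genes of the count table. All 16 came from C57BL/6 wild-type mice (male, per the series title) aged 3 months that had received vehicle. Microglia were taken as Cd11b+ and Cd45+ cells by flow sorting of enzymatically dissociated whole brain, and their RNA was purified on a micro column. Cords were frozen whole after perfusion and their RNA was extracted with Trizol. The series also holds vehicle-treated old mice of 23 months and old mice left to repopulate their microglia; of these, the old vehicle groups (8 libraries per tissue) were used once, as a second set of libraries for the same contrast. Region of the nervous system, dissociation, sorting and RNA extraction all differ along with the 2 groups and cannot be told apart.

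Microglia are the resident macrophages of the brain and spinal cord. They arise from yolk sac progenitors rather than from neural tissue, depend on signalling through the receptor Csf1r and on TGF-beta, and survey the tissue with motile processes, clearing debris and sensing nucleotides released from damaged cells. Whole cord holds them as a small share of its cells beside neurons, oligodendrocytes, astrocytes, vessels, meninges and any nerve roots left attached. In such bulk samples, fewer cells of a type and less RNA per cell cannot be told apart.

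Young microglia libraries held 28373152 to 34496308 counted reads and young cord libraries 23756093 to 32172147. A microglia library detected 15263 to 17524 genes with at least 1 read and a cord library 23745 to 24617. The 10 most abundant genes took 12.4% ± 0.81 of the reads in microglia and 6.22% ± 0.73 in cord (SD, n = 8 each). Ribosomal protein genes took 2.11% ± 0.19 and 0.93% ± 0.07, and the 13 mitochondrially encoded protein genes took 1.75% ± 0.26 and 3.97% ± 0.45. The first principal component held 96.2% of the variance and separated the tissues. Whether each library came from its own animal is not stated, so p-values here measure the spread between libraries, which may be technical.

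Most genes differed. Of 17179 genes tested, 15437 (89.9%) passed edgeR's quasi-likelihood test at an adjusted p under 0.05, of which 6596 (38.4%) were higher in microglia and 8841 (51.5%) were lower. The counts given from here on are therefore of genes shown to differ by more than 4-fold, by edgeR's test against that threshold. There were 6980 such genes (40.6%), of which 1986 (11.6%) were higher in microglia and 4994 (29.1%) were lower. The 8 libraries of a group lay wholly above or below those of the other at 5472 genes higher in microglia (31.9%) and 7509 lower (43.7%). The median log2 fold over all genes was -0.40. Levels are counts scaled to library size with TMM factors (CPM) unless stated, a unit that does not correct for gene length, and folds are microglia over cord. Other scalings lowered the folds by a median of 0.25 with DESeq2 size factors, 0.78 with total counts and 0.96 on log2(TPM + 1), so a log2 fold below about 1 has no fixed sign here. The share of the over 4-fold genes that were higher in microglia was 28.5% with TMM, 24.4% with DESeq2 size factors, 17.3% with total counts and 17.9% on log2(TPM + 1). Among all genes called, those shares were 42.7%, 37.6%, 26.7% and 22.2%.

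**Figure D1:**
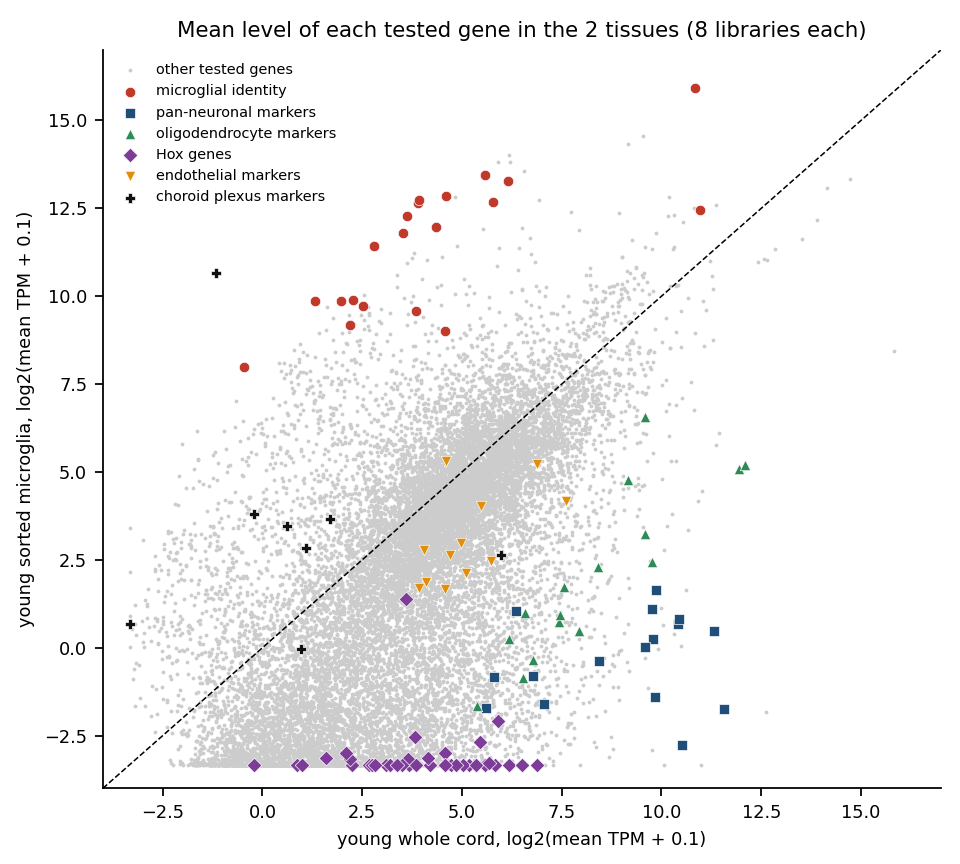
Mean TPM of each tested gene in young cord (x axis) and young microglia (y axis), as log2 of the mean plus 0.1, with 6 gene lists in colour and the line of equal level dashed. The 20 microglial identity genes lie above the line, the neuronal, oligodendrocyte and all but 1 of the Hox genes lie well below it, and the endothelial genes lie closer to it.

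The levels of the sort antigens and of known microglial genes matched the labels in all 16 libraries. Itgam, which encodes Cd11b, lay between 2842 and 3624 CPM in microglia (median 3205) and between 9.94 and 17.2 CPM in cord (median 12.6). Ptprc, which encodes Cd45, lay between 269.6 and 349 CPM in microglia (median 328) and between 4.58 and 9.46 CPM in cord (median 5.81). No cord library reached the lowest microglia library for either gene. The log2 folds were 7.95 ± 0.13 and 5.72 ± 0.13 (SE, adjusted p = 3.83e-20 and 4.89e-18 by edgeR's quasi-likelihood test). The cells were sorted on these antigens, so the direction was set by the design and the tests are not a separate check.

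All 20 microglial identity genes were over 4-fold higher in microglia (11.6% of all genes). Their median log2 fold was 8.80, beside -0.40 over all genes. P2ry12, the ADP receptor that steers process movement, lay between 5165 and 6886 CPM in microglia (median 5446) and between 10.8 and 16.8 CPM in cord (median 13.6), a log2 fold of 8.69 ± 0.12. Tmem119, a membrane protein used to mark microglia, lay between 6708 and 9138 CPM in microglia (median 7614) and between 6.94 and 10.6 CPM in cord (median 8.37), a log2 fold of 9.82 ± 0.14. The groups stood far apart at both genes, and within microglia the highest library was less than 1.5 times the lowest. Cx3cr1, the fractalkine receptor, had 15209.8 ± 573 CPM in microglia and 24.2 ± 3.65 CPM in cord.

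Ranked by fold among genes of at least 10 CPM in microglia and over 3 reads in cord, the largest rises after the choroid plexus gene Ttr lay between log2 9.32 and 9.86. They were Tmem119 and 8 further genes of membrane proteins. Selplg, the P-selectin ligand, had 10463 ± 968 CPM in microglia and 11.3 ± 2.97 CPM in cord. Fcrls, an Fc receptor-like scavenger protein, had 6375 ± 368 CPM in microglia and 7.62 ± 0.651 CPM in cord. P2ry13, another ADP receptor, had 3782 ± 310.1 CPM in microglia and 4.56 ± 0.98 CPM in cord. No cord library came near the microglia libraries at any of these. Slc2a5, the fructose transporter, had 1675 ± 173 CPM in microglia and 2.06 ± 0.358 CPM in cord. Gpr84, a receptor for medium-chain fatty acids, had 328 ± 56.4 CPM in microglia and 0.392 ± 0.0939 CPM in cord. Trem2, a lipid-sensing receptor, had 2239 ± 226 CPM in microglia and 3.5 ± 0.924 CPM in cord. The remaining members of this group were Adora3, an adenosine receptor, at 92.1 against 0.139 CPM, and Fcrl1, an Fc receptor-like protein, at 84.9 against 0.109 CPM.

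The cord level of an identity gene was a small share of its microglia level, between 0.108% and 0.408% at 16 of the 20 genes, with a median of 0.225% over all 20. It was 0.108% for Selplg, 0.111% for Tmem119, 0.207% for Csf1r and 0.243% for P2ry12. The other 4 were singled out after their values were seen. Among them were Tgfbr1, a TGF-beta receptor (0.921%), Cst3, the protease inhibitor cystatin C (1.43%), and Sall1, a zinc finger factor of microglial identity (2.28%). It was highest for Sparc, a secreted matrix protein, at 17.4%, with 8075 ± 584 CPM in microglia and 1405 ± 109.7 CPM in cord and a log2 fold of 2.52 ± 0.06. Per length, the named genes of highest level in microglia were Cst3 at 62049.7 ± 2133 TPM, the lysosomal protease gene Ctsd at 24124 ± 665 TPM and the complement genes C1qa, C1qb and C1qc at 16727, 14524 and 14434 TPM (means of 8 libraries). The unnamed locus LOC101056014 was among them too, and lay between 2348 and 26496 CPM in microglia (median 19101) and between 141 and 283 CPM in cord (median 219), a wide spread between microglia libraries. In cord they included Bc1, a neuronal non-coding RNA, the myelin gene Mbp, the ferritin gene Fth1 and the neurofilament gene Nefl.

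**Figure D2:**
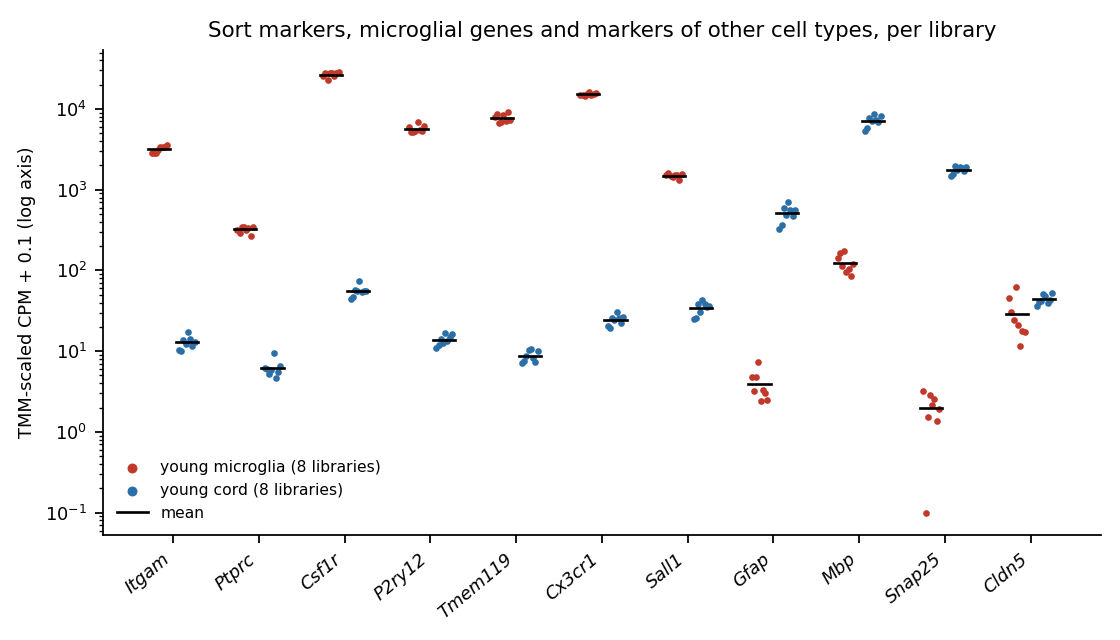
TMM-scaled CPM plus 0.1 (log axis) of 11 genes in each of the 8 young microglia and 8 young cord libraries, with bars at the means. The sort antigens and microglial genes are higher in every microglia library, Gfap, Mbp and Snap25 are higher in every cord library, and the Cldn5 values of the groups overlap.

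Transcription factors of macrophages and microglia were higher as well, with smaller folds. All 16 listed genes were over 4-fold higher (11.6% of all genes), with a median log2 fold of 4.25. Spi1, which encodes the ETS factor PU.1 that myeloid development requires, lay between 495 and 584 CPM in microglia (median 526) and between 1.68 and 2.8 CPM in cord (median 2.01). Irf8, its partner in microglial gene regulation, had 767 ± 46.3 CPM in microglia and 3.8 ± 1.11 CPM in cord. Mef2c, which neurons also use, had 462 ± 40.6 CPM in microglia and 21.2 ± 1.16 CPM in cord, a log2 fold of 4.45 ± 0.06. The groups did not overlap at any of the 16, and 31.9% of all genes were higher in microglia without overlap. Runx1, a haematopoietic factor singled out after its values were seen, lay between 135 and 162 CPM in microglia (median 153) and between 1.92 and 30.8 CPM in cord (median 12.9). Its cord values spread widely, with replicates 1 and 2 highest at 30.8 and 27.1 CPM and replicate 5 lowest.

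The letters GAGGAAGT, a form of the PU.1 site, were looked for in the 250 bases before the start of each gene, on both strands (RefSeq, GRCm38.p6). Of 139 genes over 4-fold higher in 10 lists of microglial and immune genes, 102 had an entry (73.4%). That is too few to read a difference in share from, and none is read. The letters were present at 9 of the 102, and at 2.79% of all 27025 genes with an entry. A match is a description of these letters and not of binding. Of the 5 genes among these with the highest folds, the 60-base windows of the 4 whose site lies nearest the start are shown, to place the letters relative to it. Capitals mark GAGGAAGT or, where it lies on the other strand, its complement ACTTCCTC, and each sequence reads 5′ to 3′ on the strand of the gene.
Adora3 (chr3:105904361-105904420, plus strand, site ending 22 bases before the start): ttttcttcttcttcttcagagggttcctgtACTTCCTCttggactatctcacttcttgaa
Cd37 (chr7:45238840-45238899, minus strand, site ending 17 bases before the start): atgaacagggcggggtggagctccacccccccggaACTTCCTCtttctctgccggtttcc
Inpp5d (chr1:87620252-87620311, plus strand, site ending 12 bases before the start): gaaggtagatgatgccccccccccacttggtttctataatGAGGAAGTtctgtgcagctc
Vav1 (chr17:57279040-57279099, plus strand, site ending 3 bases before the start): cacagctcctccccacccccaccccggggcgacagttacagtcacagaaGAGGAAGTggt
Cd37 is a tetraspanin of leukocytes, Inpp5d a lipid phosphatase that limits receptor signalling, and Vav1 an exchange factor of leukocytes. Their log2 folds were 8.07, 8.07 and 8.05, and that of Adora3 was 9.36.

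Receptors through which microglia respond to other cells were higher in microglia, while their ligands divided. Of 20 listed receptors, 18 were over 4-fold higher (11.6% of all genes) and none was lower, with a median log2 fold of 7.07. Csf1r, the receptor on which microglial survival depends, lay between 22962 and 28564 CPM in microglia (median 27542) and between 44.8 and 72.8 CPM in cord (median 55.4), a log2 fold of 8.92 ± 0.12. Tgfbr1 and Tgfbr2, the subunits of the TGF-beta receptor, had log2 folds of 6.76 and 4.93. The receptors that did not pass 4-fold were Itgav, an integrin subunit (1.74), and Axl, a receptor for Gas6 (0.47, below 0 with total counts and on both TPM scales).

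Of 17 ligands and ligand-handling genes, 4 were over 4-fold higher (11.6% of all genes), 4 were lower (29.1%) and 9 were neither, with a median log2 fold of 0.69. The Csf1r ligands differed from each other. Il34 lay between 0.198 and 1.41 CPM in microglia (median 0.719) and between 18 and 22.9 CPM in cord (median 21.6), so every cord library was above every microglia library, a log2 fold of -4.69 ± 0.23. Csf1 lay between 45.6 and 61.8 CPM in microglia (median 50.9) and between 26.9 and 37.4 CPM in cord (median 32.3), a log2 fold of 0.69 ± 0.08 that fell below 0 with total counts and on both TPM scales. Cx3cl1, the membrane-bound chemokine that binds Cx3cr1, had 4.91 ± 2.37 CPM in microglia and 149 ± 26.1 CPM in cord, a log2 fold of -4.91 ± 0.25. Cd200, which binds the inhibitory receptor Cd200r1, had 1.31 ± 1.12 CPM in microglia and 70.3 ± 3.89 CPM in cord, and Cd200r1 had 18.1 ± 2.01 CPM in microglia and 0.244 ± 0.121 CPM in cord. For the pairs Il34 with Csf1r, Cx3cl1 with Cx3cr1 and Cd200 with Cd200r1, the ligand was thus over 4-fold lower in microglia and the receptor over 4-fold higher.

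The TGF-beta genes did not follow that split. Tgfb1, the ligand on which microglial identity depends, lay between 779 and 1087 CPM in microglia (median 934) and between 3.92 and 4.83 CPM in cord (median 4.56), a log2 fold of 7.72 ± 0.09. Tgfb3 had 0.505 ± 0.349 CPM in microglia and 15.5 ± 1.67 CPM in cord, a log2 fold of -4.91 ± 0.33, and Tgfb2 had a log2 fold of -1.86 without passing 4-fold. Among members singled out after their values were seen, Nrros, which anchors latent TGF-beta on myeloid cells, had 415.6 ± 33.7 CPM in microglia and 3.56 ± 0.644 CPM in cord. Its endothelial and platelet counterpart Lrrc32 had 2.0 ± 1.59 CPM in microglia and 6.88 ± 0.958 CPM in cord, a log2 fold of -1.77 ± 0.46. Pros1, a ligand of the phagocytic receptor Mertk, had 699 ± 41.8 CPM in microglia and 24.6 ± 2.14 CPM in cord, and Gas6, which binds Mertk and Axl, had a log2 fold of 1.66.

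**Figure D3:**
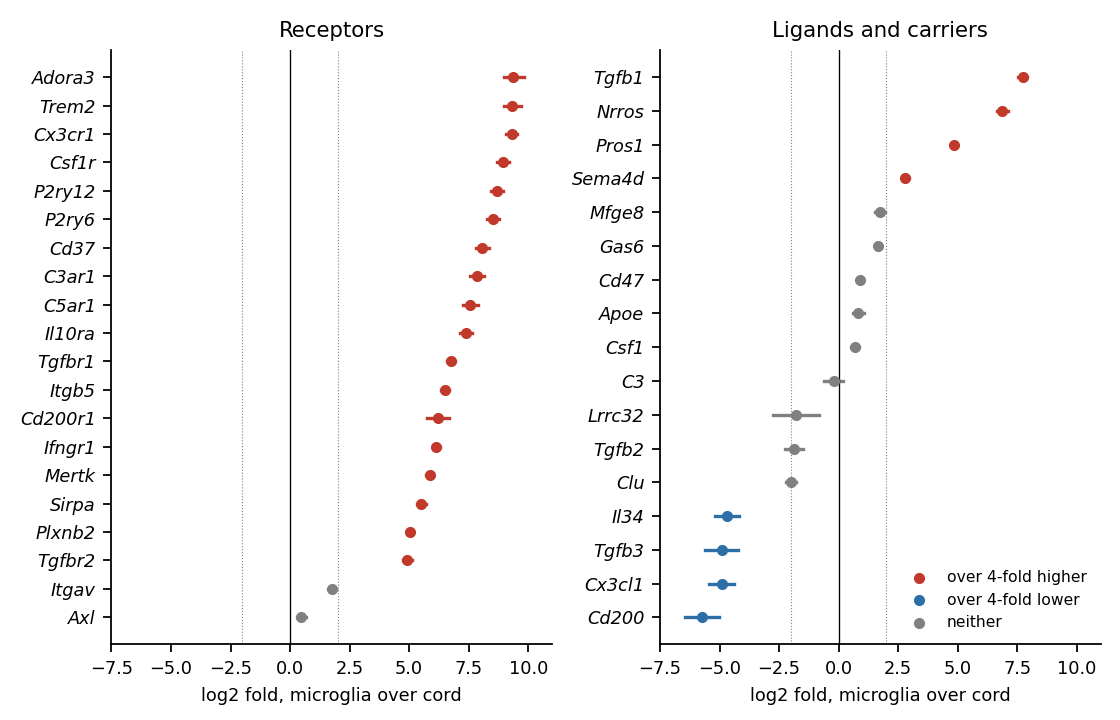
Log2 fold of young microglia over young cord with its 95% interval for 20 receptors and 17 ligands or ligand-handling genes, with dotted lines at 4-fold. All 20 receptors lie right of 0, of which 18 pass 4-fold, while the ligands run from -5.72 for Cd200 to 7.72 for Tgfb1.

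Genes of innate sensing were high throughout. All 16 genes of Tyrobp and Fc receptor signalling and all 17 Toll-like receptors and adaptors were over 4-fold higher (11.6% of all genes), with median log2 folds of 7.50 and 7.11. Tyrobp, the adaptor of Trem2, had 1209 ± 129 CPM in microglia and 6.95 ± 0.823 CPM in cord, and Fcgr1, the high-affinity IgG receptor, had 943 ± 78.8 CPM in microglia and 2.26 ± 0.516 CPM in cord. Tlr2 and Tlr4, receptors for bacterial lipids, had log2 folds of 7.14 and 5.83. Tlr3, the receptor for double-stranded RNA, had the smallest fold of the list, with 176 ± 15.5 CPM in microglia and 19.3 ± 3.2 CPM in cord and a log2 fold of 3.19 ± 0.10.

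The complement list held genes of both directions, with 7 of 17 genes over 4-fold higher (11.6% of all genes) and 4 lower (29.1%). C1qa, C1qb and C1qc, the chains of the recognition protein C1q, had log2 folds of 8.89, 8.67 and 8.95. The anaphylatoxin receptors C3ar1, C5ar1 and C5ar2 were over 4-fold higher too. C1s1, a protease of the C1 complex, lay between 0 and 0.816 CPM in microglia (median 0.23) and between 5.59 and 11.5 CPM in cord (median 9.58), a log2 fold of -4.71 ± 0.51. The regulators Serping1, Cd55 and Cd59a, which inhibit the cascade, had log2 folds of -6.25, -5.35 and -4.04. C3, the central component, lay between 11.3 and 32.9 CPM in microglia (median 24) and between 19.6 and 35.7 CPM in cord (median 26.2), and its groups overlapped (adjusted p = 0.309, edgeR's quasi-likelihood test). It was called lower with DESeq2 size factors (log2 fold -0.46, adjusted p = 0.0367 by edgeR), by DESeq2 (adjusted p = 0.0273), with total counts (-0.99) and on log2(TPM + 1) (-1.21).

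Of 20 tested chemokines and chemokine receptors, 11 were over 4-fold higher (11.6% of all genes) and 2 were lower (29.1%). Ccl3 and Ccl4, which attract monocytes and lymphocytes, had 33.4 against 0.111 CPM and 28.2 against 0.136 CPM, microglia first, and Ccl2 had 4.38 against 0.598 CPM. The lower genes were Cx3cl1 and Ackr1, a chemokine scavenger of venules, with 0.00528 ± 0.0149 CPM in microglia and 47.3 ± 9.63 CPM in cord and 1 microglia library above 0. The log2 fold of Ackr1 was -12.30. Without that library, microglia replicate 8, no microglial read was left, and the fitted -13.47 is not a measured size. The log2 fold of Ccl3 was 8.18, and 8.81 without cord replicate 5. Of 14 antigen presentation genes, 12 were over 4-fold higher, with a median log2 fold of 4.06. B2m, the light chain of class I molecules, had 2471 ± 343 CPM in microglia and 111 ± 23.2 CPM in cord, and the peptide transporters Tap1 and Tap2 had log2 folds of 4.40 and 3.48.

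Lysosomal genes formed one of the most abundant groups in microglia, with a summed level of 69927 TPM (median of 8 libraries) against 3782 TPM in cord. Of 26 genes, 23 were over 4-fold higher (11.6% of all genes), with a median log2 fold of 3.45. Ctsd, an aspartic protease, had 25781 ± 1945 CPM in microglia and 386 ± 57.4 CPM in cord. The cysteine protease Ctsb had 5772 ± 351 CPM in microglia and 642 ± 94.8 CPM in cord, and Ctsa and Ctsc had log2 folds of 4.74 and 5.65. Ctsk, the collagen-degrading cathepsin of osteoclasts and fibroblasts, went the other way, between 0 and 1.74 CPM in microglia (median 0.386) and between 5.61 and 7.61 CPM in cord (median 6.08). Its log2 fold was -3.65 ± 0.52, and -4.41 without microglia replicate 3.

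The vacuolar proton pump, which acidifies lysosomes and also loads synaptic vesicles, differed by subunit. Of 19 tested subunits, 3 were over 4-fold higher, near the share over all genes (11.6%), 2 were lower (29.1%) and 14 were neither. The median log2 fold was 0.51. On either TPM scale 1 subunit was over 4-fold higher and 4 were lower. The summed level of the list was 3252 TPM in microglia and 5479 TPM in cord (medians of 8 libraries). Tcirg1, the membrane subunit of phagocytes and osteoclasts, lay between 272 and 413.5 CPM in microglia (median 309) and between 17.9 and 23.9 CPM in cord (median 21.6). Its paralogue Atp6v0a2 had a log2 fold of 2.17. Atp6v0a1, the form abundant in neurons, had 363 ± 28.1 CPM in microglia and 308 ± 12.3 CPM in cord, a log2 fold of 0.24 ± 0.05 that took the opposite sign with DESeq2 size factors, total counts and TPM. Atp6v0e2 and Atp6v1g2, forms known from brain, had log2 folds of -5.71 and -5.76, and Atp6v0e, the widespread paralogue of Atp6v0e2, singled out after its values were seen, had 2.71.

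Of 16 purinergic receptors and ion channels, 12 were over 4-fold higher (11.6% of all genes) and 3 lower (29.1%). P2ry6, the UDP receptor linked to phagocytosis, lay between 535 and 709.7 CPM in microglia (median 623) and between 1.15 and 2.11 CPM in cord (median 1.67), and P2rx4, an ATP-gated channel, had 124 ± 6.7 CPM in microglia and 18.4 ± 1.63 CPM in cord. Nt5e, the enzyme that makes adenosine from AMP, had 0.481 ± 0.368 CPM in microglia and 15.1 ± 7.68 CPM in cord, and Kcnj10, the potassium channel of astrocytes and oligodendrocytes, had 51.7 ± 11.1 CPM in microglia and 592 ± 114 CPM in cord. Scn1a, a neuronal sodium channel, had 0.0168 ± 0.0477 CPM in microglia and 209 ± 23.4 CPM in cord, with reads in 1 microglia library. Its log2 fold was -13.37. Without that library, microglia replicate 6, no microglial read was left, and the fitted -15.62 is not a measured size.

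Glycolysis genes went in both directions, with 4 of 22 over 4-fold higher (11.6% of all genes), 4 lower (29.1%) and a median log2 fold of -0.34. Hk1, the hexokinase of neurons and most tissues, lay between 99.6 and 122 CPM in microglia (median 107) and between 235 and 277 CPM in cord (median 248). Hk2 lay between 451.04 and 530.0 CPM in microglia (median 478) and between 3.29 and 4.42 CPM in cord (median 3.84), and Hk3, the form of myeloid cells, lay between 172 and 201 CPM in microglia (median 189) and between 1.1 and 2.17 CPM in cord (median 1.69). The libraries of the groups did not overlap at these 3 genes, in opposite orders. Over all genes, 31.9% were higher and 43.7% lower in microglia without overlap. The log2 folds of Hk1, Hk2 and Hk3 were -1.21 ± 0.06, 6.94 ± 0.07 and 6.80 ± 0.10. Members also had folds of opposite sign in 3 further families, singled out after their values were seen. Among phosphofructokinases, Pfkl had a log2 fold of 1.40 and Pfkm and Pfkp had -3.88 and -4.68. Among hexose transporters, Slc2a5 had 9.66 and the neuronal Slc2a3 had -2.44. Among lactate transporters, Slc16a3 had 6.31 and Slc16a1 had -0.98. The aldolase genes Aldoa and Aldoc were both lower, at -0.64 and -3.91. Gpi1, phosphoglucose isomerase, lay between 319 and 411.7 CPM in microglia (median 357) and between 336 and 401.7 CPM in cord (median 368), with overlapping groups (log2 fold -0.04 ± 0.05). It was called lower with DESeq2 size factors (-0.29), total counts (-0.83) and on log2(TPM + 1) (-1.08).

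Cholesterol synthesis genes were lower in microglia, with 8 of 16 over 4-fold lower (29.1% of all genes) and none higher, and a median log2 fold of -2.21. Hmgcs1, which makes the precursor HMG-CoA, lay between 30.4 and 44.5 CPM in microglia (median 39) and between 443.7 and 595 CPM in cord (median 498), and Idi1, an isomerase of the isoprenoid steps, had 1.02 ± 0.581 CPM in microglia and 22.4 ± 2.46 CPM in cord. Dhcr7, which makes cholesterol from its last precursor, was the member above 0, at 0.28 ± 0.09, and took the opposite sign with total counts and TPM.

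Immediate early and stress genes, which can respond to dissociation, were higher in microglia, with 17 of 20 over 4-fold (11.6% of all genes) and a median log2 fold of 3.33. On log2(TPM + 1) 8 were. Fos lay between 126 and 390.1 CPM in microglia (median 234) and between 9.02 and 13.4 CPM in cord (median 10.7), Fosb had 26 ± 10.1 CPM in microglia and 1.4 ± 0.224 CPM in cord, and Jun and Junb had log2 folds of 3.59 and 5.45. The lowest microglia library exceeded the highest cord library at all 20, as it did at 31.9% of all genes. Within microglia, Fos lay between 126 and 222.5 CPM in replicates 1 to 4 and between 246 and 390.1 CPM in 5 to 8. Dusp1 and Klf2 split in the same way, and Fosb, Jun and Junb did not. The dissociated cells and the frozen cords differ in handling as well as in cell type, and these cannot be told apart. Of 16 cell cycle genes, 2 were over 4-fold higher and none lower. With total counts or TPM none was over 4-fold higher. Mki67 and Top2a, which mark dividing cells, had 10.4 against 4.36 CPM and 7.0 against 2.07 CPM, microglia first, and Birc5 had a log2 fold of -0.83.

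Cd11b and Cd45 are also carried by other leukocytes, and most tested markers of these were higher in microglia libraries than in cord. All 14 markers of border macrophages, the macrophages of the meninges and perivascular spaces, were over 4-fold higher (11.6% of all genes), with a median log2 fold of 3.97. Mrc1, their mannose receptor, lay between 103 and 291 CPM in microglia (median 166) and between 6.94 and 12.3 CPM in cord (median 10.8), and Cd163, Lyve1 and Pf4 had log2 folds of 3.24, 2.72 and 3.08. Of 12 neutrophil markers 10 were over 4-fold higher, as were 7 of 11 tested monocyte markers. Of the other 4 monocyte markers 1 was called higher, Gda, singled out after its values were seen, was called lower (log2 fold -1.49), and 2 were not called. On log2(TPM + 1), 6 border macrophage, 1 neutrophil and 0 monocyte markers were over 4-fold higher (limma). On log2(TPM + 0.1) these counts were 9, 4 and 2. Scaling and test changed together here, and the cause of the lower counts was not tested. The granule genes S100a8 and S100a9 had 121 ± 68.7 CPM in microglia and 11.1 ± 5.23 CPM in cord and 211 ± 92 CPM in microglia and 21.5 ± 9.61 CPM in cord. Ly6c2, a monocyte surface gene whose counts may be shared with its near copy Ly6c1, had 9.85 ± 4.49 CPM in microglia and 0.698 ± 0.249 CPM in cord, and Ccr2, the monocyte chemokine receptor, had 31 ± 11.6 CPM in microglia and 3.47 ± 1.05 CPM in cord. Summed over each list, levels in microglia were 454 to 864 TPM for border macrophage, 1064 to 4248 TPM for neutrophil and 82.1 to 268 TPM for monocyte markers, beside 134377 to 140444 TPM for the identity list. No defining marker of these lists was at 0 in the 8 microglia libraries in sum, and their part in the other results was not tested. Lymphocyte markers were near the detection limit, as 8 of 14 were too low to test. Of the 6 tested, 3 were over 4-fold higher, but without microglia replicate 4 or 6 or cord replicate 6 or 8, with either other scaling and on both TPM scales, 1 was. Of the 6, 5 were called higher at any fold and 1 was not called. Cd79b, a B cell receptor chain that microglia also carry, had 55.9 ± 5.23 CPM in microglia and 0.827 ± 0.369 CPM in cord, whereas its partner Cd79a had 6.67 ± 5.27 CPM in microglia and 1.02 ± 0.444 CPM in cord.

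Most choroid plexus genes were higher in microglia as well. Ttr, the thyroid hormone carrier that choroid plexus epithelium secretes, had the largest fold of all named genes. It lay between 478 and 2201 CPM in microglia (median 1071) and between 0.0274 and 0.194 CPM in cord (median 0.115), a log2 fold of 13.18 ± 0.49. Microglia replicate 3 was highest at 2201 CPM and replicate 2 lowest, and no cord library reached 1 CPM. Of 8 listed genes 6 were over 4-fold higher (11.6% of all genes), and 2 on log2(TPM + 1). Folr1, a folate receptor, had 12.1 ± 6.11 CPM in microglia and 0.326 ± 0.122 CPM in cord, and Kl, the gene of klotho, had 37.3 ± 19.6 CPM in microglia and 4.63 ± 0.604 CPM in cord. Otx2, a forebrain and plexus factor singled out after its values were seen, lay between 1.19 and 5.87 CPM in microglia and had no read in cord, at least 393-fold higher. Aqp1, a water channel, was between 3.97 and 18.6 CPM in microglia (median 8.01) and between 1.56 and 112 CPM in cord (median 39.2). Summed levels of the list were 749 to 3798 TPM in microglia and 11.1 to 167 TPM in cord. Whole brain includes choroid plexus and cord does not, and the part of such cells in these values was not tested.

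**Figure D4:**
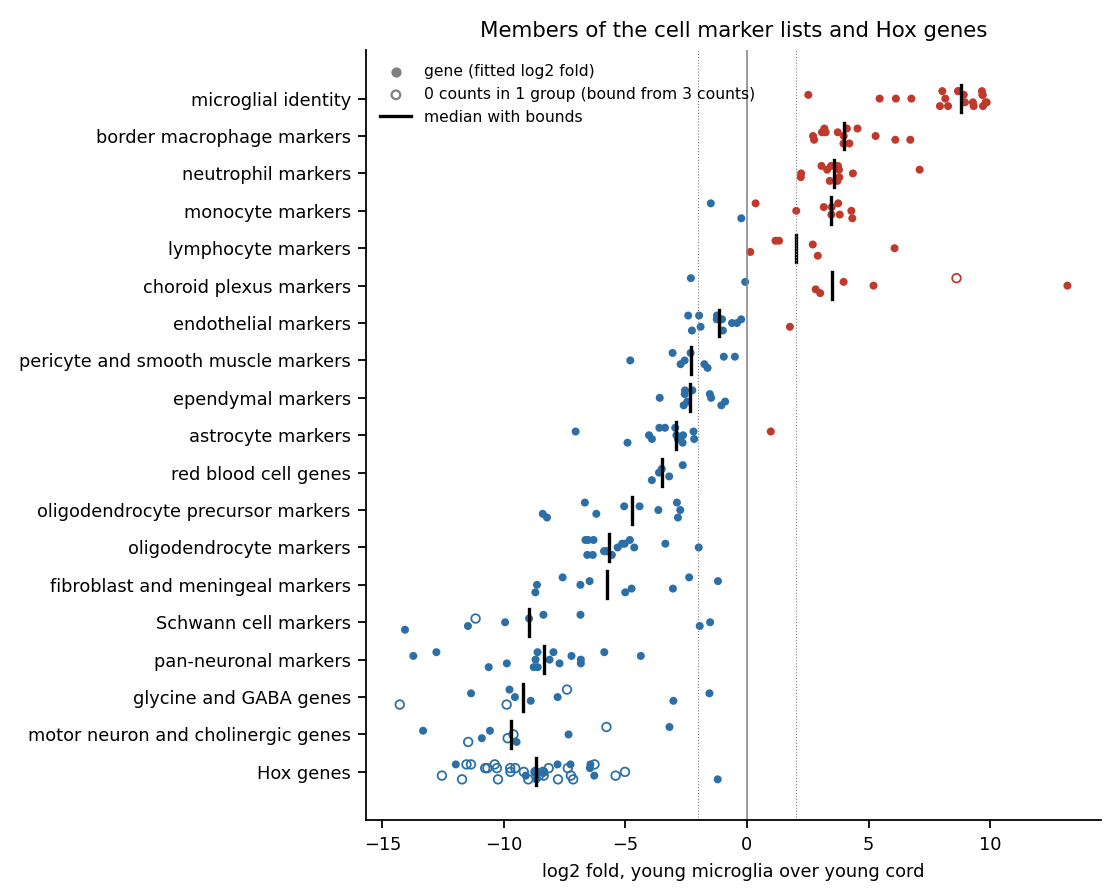
Log2 fold of young microglia over young cord for the tested members of 18 cell marker lists and of the Hox list, with black bars at the list medians and dotted lines at 4-fold. Open circles are genes with 0 counts in 1 group, drawn at the bound that 3 counts give. The medians of the leukocyte and choroid plexus lists lie right of 0, endothelial genes run from -2.42 to 1.77, and the medians of the neuronal and Hox lists lie below -8.

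The transcripts of other neural cells were lower in microglia by amounts that differed between cell types. The summed level in microglia, as a share of that in cord, was 0.111% for pan-neuronal markers, 1.56% for oligodendrocyte, 3.77% for precursor, 6.68% for astrocyte and 22.5% for endothelial markers (medians of 8 libraries, TPM). All 16 neuronal markers were over 4-fold lower (29.1% of all genes), with a median log2 fold of -8.37. Snap25, a protein of synaptic vesicle fusion, lay between 0 and 3.12 CPM in microglia (median 1.92) and between 1475 and 1974 CPM in cord (median 1800.0). Tubb3, a neuronal tubulin, had 1.41 ± 0.645 CPM in microglia and 623 ± 237 CPM in cord, and Rbfox3, which encodes NeuN, had 1.05 ± 0.807 CPM in microglia and 118 ± 6.91 CPM in cord. Nefl, Nefm and Prph, the neurofilament and peripherin genes, were among the 10 largest falls of genes with at least 10 CPM in cord and over 3 reads in microglia. Nefl had 0.213 ± 0.229 CPM in microglia and 1613 ± 377 CPM in cord, a log2 fold of -12.78 ± 0.34.

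Several of these largest falls moved when 1 microglia library was left out. Nefm had a log2 fold of -13.73, and -14.43 without microglia replicate 3. Prph had -13.32 from 4 reads, and a fitted -15.91 without the same library, which held all of them. The imprinted non-coding RNA Meg3 had -13.62, and -14.66 without replicate 6. Slc17a6, the glutamate transporter of cord neurons, had -12.26, and a fitted -15.35 without replicate 2, which held all its microglial reads. With no microglial read left, these fitted values of Prph and Slc17a6 are not measured sizes. Disp2, Hecw1 and the non-coding RNA Miat, all known from neurons, had -11.90, -11.48 and -11.65, and -12.60, -12.80 and -12.52 without replicates 1, 2 and 4. These 7 genes stayed lower on leaving out any 1 of the 16 libraries.

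Genes of motor, cholinergic and inhibitory neurons of the cord were lower in microglia. All 10 motor neuron and cholinergic genes and 9 of 10 glycine and GABA genes were over 4-fold lower (29.1% of all genes), with median log2 folds of -9.72 and -9.22 when genes at 0 are set to their bounds. Chat and Slc5a7, which make acetylcholine and recover its choline, had no read in microglia against 12.1 ± 2.71 and 43.8 ± 9.07 CPM in cord, at least 779-fold and 2833-fold lower. Slc18a3, the vesicular transporter for acetylcholine, had 1 microglia library above 0 and a log2 fold of -10.91. Without that library, replicate 6, no microglial read was left, and the fitted -12.08 is not a measured size. Slc6a5, the glycine transporter of inhibitory neurons, had no read in microglia and 309 ± 55.7 CPM in cord, at least 19947-fold lower. Gad1 and Slc32a1, of GABA synthesis and release, had log2 folds of -7.79 and -9.55, the latter -10.25 without microglia replicate 4. Ache, acetylcholinesterase, was the least changed of the cholinergic genes, with 13.5 ± 1.88 CPM in microglia and 123 ± 12.9 CPM in cord.

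Some genes of these lists varied between cord libraries together. Prph was highest in cord replicates 1 and 2, at 577 CPM in the first, and lowest in replicate 5 at 35 CPM. Among genes singled out after their values were seen, the sensory peptide gene Calca was 356 and 264 CPM in replicates 1 and 2 and 21.8 CPM in replicate 5. Pirt, a gene of sensory neurons, was 421.3 and 346 CPM in those replicates and 1.56 CPM in replicate 5, and had no read in microglia. Scn11a, a sodium channel of pain-sensing neurons, was 217 and 197 CPM there and 0.741 CPM in replicate 5. The same libraries were highest and lowest at Fxyd2, A3galt2, Isl1 and Runx1. They were so too at genes counted in other lists, among them Aqp1, Cd55, Nt5e, Gda and the forebrain list member Slc17a7. Further cases were the neuronal markers Tubb3 and Nefl, the Hox gene Hoxd1 and the lysosomal gene Ctsl. Aqp1, for example, was 112 and 89.4 CPM in replicates 1 and 2 and 1.56 CPM in replicate 5. Tubb3 was 1056 and 879 CPM in replicates 1 and 2 and 315 CPM in replicate 5. The folds of these genes thus rest on cord levels that vary with the sensory genes, and the cause was not tested. The labels do not say whether ganglia or roots were removed with the cord.

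Oligodendrocyte markers were lower in microglia, with 15 of 16 over 4-fold lower (29.1% of all genes) and a median log2 fold of -5.66. Mbp, a main protein of central myelin, had 125 ± 32.1 CPM in microglia and 7122 ± 1129 CPM in cord. Mog and Mag, of the outer and inner myelin surface, had log2 folds of -4.82 and -3.36. All 10 precursor markers were over 4-fold lower, among them Pdgfra (-6.20) and Olig2 (-3.65), with a list median of -4.73. Of 14 astrocyte markers 11 were over 4-fold lower, with a median of -2.93. Gfap, the intermediate filament of astrocytes, lay between 2.3 and 7.13 CPM in microglia (median 3.17) and between 326 and 698 CPM in cord (median 524), a log2 fold of -7.05 ± 0.25, and Aqp4, their water channel, had -4.91. Slc1a2, the main glutamate transporter, had -3.37, while Slc1a3, the other glial glutamate transporter, lay between 203 and 246 CPM in microglia (median 240.2) and between 91 and 151 CPM in cord (median 122). Slc1a3 was thus higher in every microglia library, with a log2 fold of 0.98 ± 0.08 that fell below 0 on both TPM scales.

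Schwann cell and fibroblast genes were strongly lower. Of 9 Schwann cell genes 7 were over 4-fold lower (29.1% of all genes), with a median log2 fold of -8.96. Prx, which peripheral myelin needs for its stability, had -11.48, and -13.20 without microglia replicate 4. Pmp22, another peripheral myelin gene, had 549 ± 36.3 CPM in microglia and 1571 ± 233 CPM in cord, a log2 fold of -1.52 ± 0.08 that did not pass 4-fold. Of 10 fibroblast and meningeal genes 9 were over 4-fold lower. Col1a1, Col1a2 and Col3a1, the fibrillar collagens, had log2 folds of -7.58, -6.47 and -8.64 (the last -9.53 without microglia replicate 4), and Dcn, a matrix proteoglycan, had -8.71.

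Vascular and ependymal markers were the least reduced. None of 12 endothelial markers was over 4-fold higher or lower, and their median log2 fold was -1.13. With total counts or TPM, 4 were over 4-fold lower, and 2 were with DESeq2 size factors or without microglia replicate 1 or 4. Cldn5, a tight junction protein, lay between 11.4 and 62.2 CPM in microglia (median 22.5) and between 36.4 and 52.3 CPM in cord (median 42.3), and the groups overlapped. Cdh5, the endothelial cadherin, and Flt1, a VEGF receptor, had -1.03 ± 0.21 and -0.99 ± 0.26. Pecam1, which leukocytes share, had 85 ± 9.7 CPM in microglia and 25 ± 1.42 CPM in cord, a log2 fold of 1.77 ± 0.07. Of 9 tested pericyte and smooth muscle genes 4 were over 4-fold lower (29.1% of all genes), with a median log2 fold of -2.32. Pdgfrb had 8.72 ± 5.37 CPM in microglia and 51.7 ± 5.16 CPM in cord. Rgs5 had 23.9 ± 13.3 CPM in microglia and 159 ± 7.2 CPM in cord. Of 10 ependymal genes 3 were over 4-fold lower, near the share over all genes (29.1%), with a median log2 fold of -2.35. With DESeq2 size factors or total counts 6 were. Without microglia replicate 1 or 7 the count was 5, and without replicate 5 or 8 it was 1. Foxj1, the factor of motile cilia, had 5.04 ± 2.63 CPM in microglia and 27.7 ± 1.72 CPM in cord. All 5 red blood cell genes were over 4-fold lower (29.1% of all genes), and 0 by limma-voom. Hbb-bs, a haemoglobin gene whose reads may be shared with near copies, had 7.75 ± 5.82 CPM in microglia and 71.3 ± 27.1 CPM in cord.

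Hox genes, which set the position of cells along the trunk and are silent in the forebrain, separated the groups almost completely. Of 37 tested Hox genes 36 were over 4-fold lower in microglia (29.1% of all genes), and 28 of the 39 listed had no read in any microglia library. Of 35870 genes in the count table, 8343 had reads in cord and none in microglia, and 6958 had none in the 16 libraries. The median log2 fold of the tested Hox genes was -8.66 with genes at 0 set to their bounds. Summed over the list, levels were 2.15 to 3.73 TPM in microglia and 778 to 1026 TPM in cord. Hoxa2 and Hoxa4 had no microglial read and 2.2 and 2.56 CPM in cord, at least 142-fold and 166-fold lower. Hoxa3 had 0.0546 ± 0.154 CPM in microglia and 9.3 ± 1.37 CPM in cord, with all its microglial reads in replicate 5. Its log2 fold was -7.26. Without that library no microglial read was left, and the fitted value of -11.12 is not a measured size.

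Per length, the Hox genes of highest level in cord were Hoxb8 (chr11:96281905-96285315, GRCm38) at 118 ± 16.9 TPM and, singled out after their values were seen, Hoxc10 at 90.4 ± 14.7 TPM and Hoxb9 at 72.7 ± 9.2 TPM (SD, n = 8), all with no read in microglia. The last genes of the clusters, Hoxa13, Hoxb13, Hoxc13 and Hoxd13, were at 1.88, 14.1, 9.05 and 0.759 TPM. The exception in microglia was Hoxb4 (chr11:96318267-96321638, GRCm38, plus strand), also singled out after its values were seen. It lay between 2.34 and 5.68 CPM in microglia (median 3.49) and between 6.82 and 9.16 CPM in cord (median 8.37), a log2 fold of -1.20 ± 0.17, with reads in all 8 microglia libraries and no overlap between groups. The GENCODE M21 annotation places no other gene over it.

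**Figure D5:**
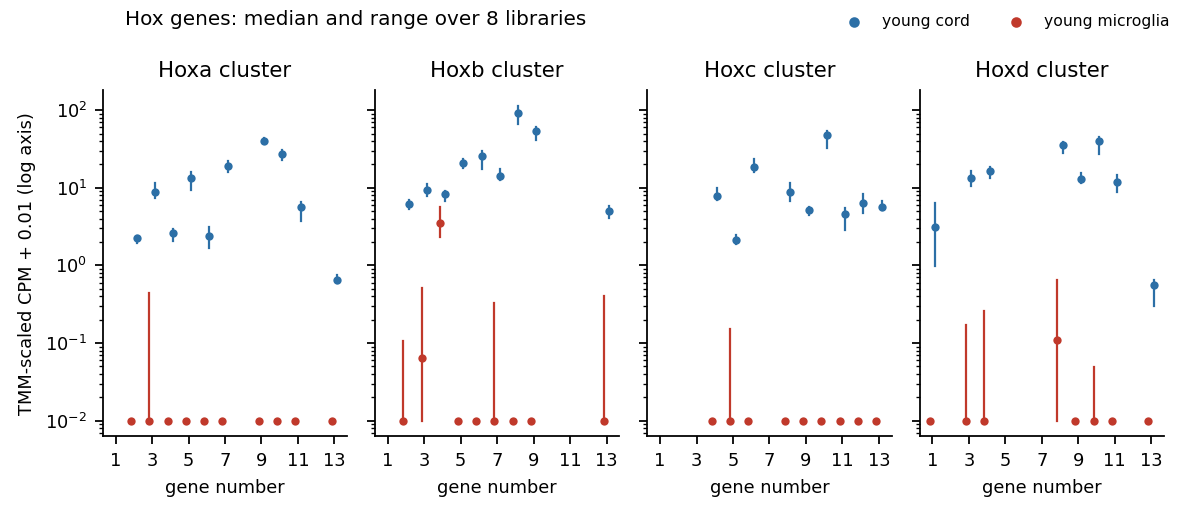
TMM-scaled CPM plus 0.01 (log axis) of 36 of the 37 tested Hox genes in young cord and young microglia, by cluster and gene number, with points at the median and lines from the lowest to the highest of 8 libraries. A point at 0.01 is a median of 0 CPM. Hoxb4 is the gene whose microglia libraries lie close to those of cord.

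Genes of forebrain and cerebellar neurons, cells of the region the microglia came from, were mostly lower in microglia. Of 12 such genes 7 were high enough to test, of which 5 were over 4-fold lower in microglia (29.1% of all genes) and none was over 4-fold higher. With a stricter filter on low counts 3 were lower, and 1 was higher without a filter, in a fit on all 48 libraries, and without microglia replicate 7 or any 1 cord library but replicate 2. Camk2a, a kinase of excitatory neurons, had 16.5 ± 4.43 CPM in microglia and 126 ± 13.3 CPM in cord, and Nrgn, a postsynaptic protein of forebrain, had 2.28 ± 0.35 CPM in microglia and 8.92 ± 2.45 CPM in cord. Neurod6 had a log2 fold of -6.94, with all its microglial reads in replicate 3. Without that library the fitted value of -9.18 is not a measured size.

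Many genes of cord had no read in microglia at all. There were 8343 genes with reads in cord and none in the 8 microglia libraries, of which 1045 had at least 1 TPM in cord and 170 at least 10 TPM. In the other direction 320 genes had reads in microglia and none in cord, of which 21 reached 1 TPM and 2 reached 10 TPM. A fold for such a gene is a lower bound from 3 reads over the 8 libraries, and it covers counting error only. Snhg11, a neuronal host RNA, lay between 943 and 1172 TPM in cord, and Syt2, a calcium sensor of fast synapses, between 219 and 272 TPM. They were at least 106892-fold and 33923-fold lower in microglia. Tac1, which encodes substance P, lay between 49.1 and 207 TPM, and Mfap5, a matrix protein, between 78.6 and 128 TPM, at least 2839-fold and 3281-fold lower. Tmem233 lay between 0.289 and 292 TPM, at least 1478-fold lower by its mean, and was lowest in cord replicate 5.

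Beside Otx2, some genes with reads in microglia alone had few of them. Olfr110, an olfactory receptor gene, lay between 0.65 and 4.05 TPM in microglia (231 reads), at least 108-fold higher. Scarna2, a small RNA of Cajal bodies, lay between 0 and 79.9 TPM (150 reads), and Defb11, a defensin gene, between 0 and 8.36 TPM (126 reads), at least 77.3-fold and 60-fold higher. Others of this kind were 5 microRNA loci (Mir7212, Mir455, Mir1960, Mir6240 and Mir7086) with 13 to 24 reads each. Gene counts do not tell a microRNA from a longer transcript over its locus.

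A further set of genes had like levels in both groups. The 95% interval of the log2 fold lay within 0.5 of 0 for 1704 genes (9.92% of those tested). Those of highest mean CPM were Hsp90ab1, a heat shock protein (-0.13, 95% interval -0.34 to 0.08), Ckb, brain creatine kinase (-0.07, 95% interval -0.22 to 0.09), and the mitochondrial gene CYTB (-0.04, 95% interval -0.24 to 0.15). Srrm2 and Eif4g2, of splicing and translation, had -0.01 and 0.07. Gapdh, a glycolytic enzyme used as a reference gene, had 868 ± 81 CPM in microglia and 779 ± 25.2 CPM in cord, a log2 fold of 0.16 ± 0.05 that turned negative with DESeq2 size factors, total counts and TPM. These 6 were chosen for their small folds, which depend on the scaling.

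Within microglia the most variable genes included Acta2, the smooth muscle actin (2.87 to 31.6 CPM), Col4a1, a basement membrane collagen (3.45 to 29.8 CPM), and Trpm3, a channel of choroid plexus and neurons (5.80 to 29.4 CPM). Acta2 and Col4a1 were highest in replicate 4 and Trpm3 in replicate 3. Kif5a, also among them, lay between 28.45 and 38.04 CPM in replicates 1 to 4 and between 3.30 and 12.5 CPM in 5 to 8. The non-coding RNAs Rn7sk and Rpph1 ranged from 11.1 to 143 CPM and from 1.63 to 30.8 CPM, both higher than in every cord library. Both were higher in each of microglia replicates 5 to 8 than in any of 1 to 4. The cause of this split by replicate number was not tested. In cord the muscle genes Myh4, Acta1 and Atp2a1 varied most along with the sensory genes above, from 1.24 to 107, 1.47 to 53.0 and 1.42 to 41.8 CPM, all highest in replicate 6. Their log2 folds rest partly on that library. Without it, that of Acta1 went from -7.22 to -6.47 and that of Atp2a1 from -5.13 to -4.45. Myh4 had no read in microglia.

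The same contrast in old vehicle-treated mice, whose libraries the young comparison does not use, shared most of its calls. Of 17233 genes tested, 1933 (11.2%) were over 4-fold higher in old microglia and 4308 (25%) were lower. The higher lists shared 1680 genes, 84.6% of the young and 86.9% of the old list, and the lower lists shared 3999, 80.1% of the young and 92.8% of the old. Of 16867 genes tested at both ages, none was over 4-fold in opposite directions.

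The size of the tissue difference nevertheless changed with age at many genes. In 1 fit over the 32 libraries, 3490 of 18557 genes (18.8%) passed the test of tissue by age (edgeR's quasi-likelihood test), 1833 (9.88%) with a difference larger toward microglia in young and 1657 (8.93%) with one larger toward microglia in old. Among the genes that passed, the fold of microglia over cord was larger in young for 19 of the 20 identity genes, 13 of 16 transcription factors, 15 of 16 Tyrobp and Fc receptor genes and 14 of 17 Toll-like receptor genes. The opposite held for 10 of 11 tested monocyte markers, 11 of 16 cell cycle genes and 14 of 16 cholesterol genes, whose fold was larger toward microglia in old. The interaction does not say which tissue moved.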

How the data were processed

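RNA-seq libraries of sorted brain microglia and whole spinal cord were compared, 8 young libraries per tissue, with 16 old vehicle libraries as a second set. The library kit selects polyadenylated RNA and does not record strand, per the labels, so reads of a gene and its antisense partner cannot be told apart. The count table was deposited by the authors as unnormalized read counts. STAR 2.5.2b and GRCm38.p5 appear in the submitters' processing notes, without a role for either. The tool that counted reads is not given in the sources used here. In a separate table the authors deposited TPM values with gene lengths, and these equal the TPM recomputed from the deposited counts and lengths.

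Counts were fitted with edgeR 4.0.16 (R 4.3.3) on the 16 young libraries, after filterByExpr (minimum count 10, total 15) and TMM scaling. The quasi-likelihood test used an adjusted p under 0.05 (Benjamini-Hochberg), and glmTreat tested differences over 4-fold. Counts of 16113 genes were simulated with both groups drawn from the cord profile. In them 100 genes changed by a log2 fold of 1 and 100 by 3, up and down equally, and 15913 were unchanged. Of genes with a log2 fold of 1, 74% were called, of those with 3, 100%, and of unchanged genes 0.044%. In the data most genes differ, so these rates do not carry over to it. At a true log2 fold of 3, 85% passed the over 4-fold test. Alternatives were DESeq2 1.42.0, limma 3.58.1 (voom, log2(TPM + 1) and log2(TPM + 0.1)), other scalings, filters and fold thresholds, a fit on all 48 libraries, the replicate block and leaving out each library. No sign was seen that equal sample numbers pair the libraries, and no label says whether they do. No 2 libraries of a group were alike within counting noise.

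The comparison, the 36 gene lists and the rule for named genes were chosen with earlier results of these data known. The rule takes 12 panel genes, the 10 largest folds per direction (at least 10 CPM in the higher group, over 3 reads in the lower), 8 genes per direction with no reads in 1 group, the first 4 tested members of each list with up to 4 against its majority, the 6 most abundant and 6 most variable genes per group, the 4 largest interactions per side and 6 like genes. Any other gene named was chosen after its values were seen. Bounds for genes at 0 use 3 counts over the 8 libraries and cover counting error only, as reads carry no molecular identifiers. A further 15 motifs were searched in promoters and are not described. Some genes the rule takes are not reported here.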

Additional observations from a re-analysis of the deposited data

Results flagged for a closer look

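The summed level of choroid plexus markers in microglia replicate 3 was 3798 TPM, while the other 7 microglia libraries lay between 749.5 and 2147 TPM. Cord replicate 5 stood apart at 3 measures of microglial content. Its Ptprc level was 9.462 CPM against 4.58 to 6.448 CPM in the other 7 cord libraries. Its Csf1r level was 72.82 CPM against 44.76 to 56.8 CPM, and its summed sort markers were 19.54 TPM against 12.04 to 14.4 TPM. These measures overlap, since Ptprc is one of the sort markers. In all, 4 of 76 sets of 8 libraries had such a library, and chance alone gives about 1 in 20.

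The tissue difference changed with age by the largest amounts at genes that microglia hardly express. The young fold minus the old fold was 5.91 (log2) for Ppp1r14c, 5.59 for Trim66, 5.32 for Dclk3 and 5.23 for Usp29. Each of these 4 had no read in old microglia and under 0.5 CPM in young microglia. It was -5.88 for Lrrtm4, -5.95 for Syt2, -6.09 for Pcsk1 and -6.63 for Scn3a, which had no read in young microglia and under 0.5 CPM in old. The adjusted p lay between 0.0027 and 0.0205 (edgeR's quasi-likelihood test). Cord levels differed little between the ages at these genes, for example 533 CPM at Syt2 in young and 522 CPM in old cord. With 1 group at 0, the fitted difference depends on the prior count and is not a measured size.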

How the results depend on the processing

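With total counts, log2(TPM + 1) and log2(TPM + 0.1) in turn, 4181, 3540 and 3525 genes were called higher in microglia, and 1285, 872 and 1045 were over 4-fold higher. Without a low-count filter 14064 genes were called lower and 8511 were over 4-fold lower. At thresholds of 2-fold and 8-fold, 3856 and 1134 genes were higher. In old libraries 1277 genes were over 4-fold higher with total counts, and 8025 were lower without a filter. The cause was not tested where scaling and test changed together.

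Lists moved as follows, in members over 4-fold. On log2(TPM + 1) and log2(TPM + 0.1) in turn, higher members were 6 and 9 for border macrophage, 0 and 2 for monocyte, 1 and 4 for neutrophil, and 8 and 9 for stress genes. Choroid plexus had 2 higher on log2(TPM + 1) and 1 lower with total counts. Lymphocyte markers had 1 higher with DESeq2 size factors, total counts, the stricter filter, DESeq2, voom, either TPM scale and the replicate block, and 1 to 3 on leaving out a library. Endothelial markers lower were 2 with DESeq2 size factors, 4 with total counts and on either TPM scale, and 1 without a filter, with the stricter filter, voom and the replicate block, with 0 to 2 on leaving out a library. Ependymal markers lower were 6 with DESeq2 size factors and total counts, 7 on log2(TPM + 0.1), 5 with the replicate block and 1 in the fit on 48 libraries, with 1 to 5 on leaving out a library. Red blood cell genes lower were 0 by voom. For forebrain genes, 1 was higher without a filter and on 48 libraries (0 to 1 on leaving out a library) and 3 were lower with the stricter filter. Ligands lower were 7 and cholesterol genes lower 13 on log2(TPM + 0.1). Chemokine genes lower were 4 with total counts, without a filter and on either TPM scale. Cell cycle genes higher were 1 with DESeq2 size factors and the stricter filter, and 0 with total counts, DESeq2 and either TPM scale. Proton pump subunits higher were 1 with total counts and on either TPM scale, and 4 were lower on either TPM scale.

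Called folds that changed sign were those of Atp6v0a1 (-0.0099 with DESeq2 size factors, -0.0099 by DESeq2, -0.55 with total counts, -0.80 and -0.81 on the TPM scales), Axl (-0.31, then -0.57 and -0.58), Csf1 (-0.0898, then -0.33 and -0.34), Dhcr7 (-0.51, then -0.74 and -0.76) with total counts and TPM, Gapdh (-0.0890 with DESeq2 size factors, -0.0891 by DESeq2, -0.63, then -0.89 and -0.89) and Slc1a3 (-0.0497 and -0.0501 on the TPM scales). Eif4g2, not called at 0.07, was called lower at -0.17 with DESeq2 size factors and -0.71 with total counts. Leaving out 1 library kept the over 4-fold counts between 1912 and 2045 higher and between 4971 and 5362 lower.

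The replicate block gave 1955 genes over 4-fold higher and 5153 lower. No sign of pairing by number was seen. Of 8 same-numbered pairs, 1 had a correlation over 0.1 (range -0.22 to 0.11, over 12050 genes), and 1 of 8 microglia libraries matched its own number best. Such unlike tissues of the same mouse need not correlate, so this does not decide whether equal numbers mark the same mouse. Depth leaves only a bound for genes with no read in a group.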
